A study of Homo sapiens with 4 samples.

Results

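The genes described here are 10 genes of NAD synthesis and consumption, measured by RNA sequencing in OCI-AML3, a human acute myeloid leukaemia cell line. They are 10 of 41084 Ensembl identifiers in the deposited tables. By role they are NAMPT, NAPRT, NMNAT1, NMNAT3 and NADK (salvage, completion and phosphorylation of NAD), NADSYN1 and QPRT (the amidating step and the de novo entry), and CD38, BST1 and SIRT1 (consumers). The genes were chosen by function, with earlier results of this same comparison known. The rule then used the mean TPM to choose between identifiers of the same symbol, and each symbol had 1 identifier. Differences between the groups are therefore given as a description of these 10 genes and are no evidence about NAD genes as a class.

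There were 4 poly(A) RNA libraries, 2 with the genotype label Plex CEBPB and 2 with the label Plex Control. Both groups are the same cell line, no agent or time is labelled, and the word Plex is not explained in the sources used here. Nothing in the labels says that replicates came from separate cultures, so p-values measure the spread between these libraries, which may be technical. CEBPB encodes the transcription factor C/EBPβ, which acts in myeloid and inflammatory cells, and the series title places it in a loop with IL-1β and TNFα in drug-resistant monocytic leukaemia cells.

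NAD carries electrons in metabolism and is also cut up as a substrate by signalling enzymes, so cells remake it continuously. NAMPT starts the salvage of nicotinamide, NAPRT starts from nicotinic acid, and QPRT starts from quinolinic acid, the end product of tryptophan breakdown through kynurenine. NMNAT enzymes complete the dinucleotide, and CD38, BST1, sirtuins and ADP-ribosyl transferases consume it. In human myeloid progenitors NAMPT and SIRT1 have been linked to granulocyte differentiation together with C/EBP factors.

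Promoters of the 3 members with the largest rise are shown here because those genes changed in the libraries whose label names a DNA-binding factor. Each runs from 250 bases before to 50 bases after a RefSeq transcript start on GRCh38.p14. For NAMPT the whole window lies inside the gene span given below. Capitals mark the C/EBP core TTGCNNAA, searched on both strands (TTNNGCAA on the reverse). The NAMPT window is chr7:106284934-106285233 on the minus strand, the CD38 window is chr4:15778078-15778377 on the plus strand, and the SIRT1 window is chr10:67884406-67884705 on the plus strand.
NAMPT: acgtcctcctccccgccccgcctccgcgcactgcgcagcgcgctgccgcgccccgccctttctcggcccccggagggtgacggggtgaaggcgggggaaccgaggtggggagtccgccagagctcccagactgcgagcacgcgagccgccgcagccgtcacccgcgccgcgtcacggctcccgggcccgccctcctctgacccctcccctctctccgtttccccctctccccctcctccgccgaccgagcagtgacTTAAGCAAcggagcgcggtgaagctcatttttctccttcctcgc
CD38: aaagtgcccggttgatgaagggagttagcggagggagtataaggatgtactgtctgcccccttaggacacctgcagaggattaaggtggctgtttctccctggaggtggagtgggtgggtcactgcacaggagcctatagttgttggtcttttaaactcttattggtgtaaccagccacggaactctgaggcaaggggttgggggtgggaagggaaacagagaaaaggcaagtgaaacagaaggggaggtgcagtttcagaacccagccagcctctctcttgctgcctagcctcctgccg
SIRT1: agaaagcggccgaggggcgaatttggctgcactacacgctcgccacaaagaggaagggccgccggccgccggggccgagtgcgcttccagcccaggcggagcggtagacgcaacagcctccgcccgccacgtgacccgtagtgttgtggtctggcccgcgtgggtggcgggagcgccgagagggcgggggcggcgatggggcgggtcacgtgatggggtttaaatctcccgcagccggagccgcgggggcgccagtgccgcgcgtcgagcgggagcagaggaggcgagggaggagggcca

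The NAMPT window held 1 match, TTAAGCAA, which begins at base 7 of that RefSeq transcript, and the CD38 and SIRT1 windows held none. Promoter windows were found for 8 of the 10 members (not NAPRT and BST1), 12 windows in all. The only other match was TTGCAAAA, at position -75 relative to the most upstream of the NADK starts. The stricter palindrome TTGCGCAA was in none of the 12 windows. Over all 35116 promoter windows of the same length, 10.5% held TTGCNNAA and 0.151% held TTGCGCAA. A match is a description of letters and no evidence of binding.

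The deposited counts summed to 18151225 to 21950575 per library, fewer than the number of read pairs the labels state. CEBPB, the gene of the genotype label, stood at 536 and 339 TPM in the CEBPB libraries and at 4.72 and 4.47 TPM in the Control libraries. TPM is transcript abundance per length, with the same total in each library. Of 8 myeloid markers, 7 reached 1 TPM in some library; CD33 lay between 46.5 and 53.0 TPM in all 4, while MPO was at 0.194 to 1.79 TPM. Their summed level was 323 and 379 TPM in the CEBPB libraries and 674 and 676 TPM in the Control libraries. Most of it was CD68 (156 and 191 TPM in the CEBPB libraries, 371 and 366 TPM in the Control libraries) and SPI1 (103 and 120.2 TPM in the CEBPB libraries, 218 and 223 TPM in the Control libraries). ITGAM went the other way, with 4.54 and 5.23 TPM in the CEBPB libraries and 1.53 and 0.972 TPM in the Control libraries. Of 27 markers of other lineages 5 reached 1 TPM, and those at 0 in every library included CD3E, CD2, NCR1, HBB, ALAS2, PF4, KRT19 and CDH5. Their sum was 25.4 and 25.8 TPM in the CEBPB libraries against 9.43 and 9.22 TPM in the Control libraries, and DCN, a fibroblast marker, alone read 20.4 and 20.8 TPM in the CEBPB libraries against 1.03 and 0.576 TPM in the Control libraries. Without DCN the other 26 markers summed to 5.01 and 4.95 TPM in the CEBPB libraries and 8.40 and 8.64 TPM in the Control libraries, the opposite direction. Among them COL1A1, also a fibroblast marker, was higher in the CEBPB libraries (1.84 and 0.928 TPM, against 0.449 and 0.734 TPM in the Control libraries). NCAM1 was lower there (1.82 and 2.06 TPM, against 3.79 and 4.10 TPM in the Control libraries), as were PAX5 and GP9. The part of these shifts in the results below was not tested.

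The salvage enzyme NAMPT, the NAD-cleaving surface enzyme CD38 and the deacetylase SIRT1 rose in the CEBPB libraries, by 8.71-fold, 5.92-fold and 2.97-fold. NAPRT, QPRT, NMNAT3 and, by a small margin, NADSYN1 fell. NMNAT1, NADK and BST1 did not pass the test. So of 10 members, all of which passed the filter on low counts, 3 rose and 4 fell with edgeR's quasi-likelihood test and a Benjamini-Hochberg adjusted p under 0.05. Among the 13698 identifiers tested, 48.5% were called, 23.7% higher and 24.7% lower. These were 3251 higher and 3390 lower, whereas scaling by library totals alone gave 4424 higher and 2360 lower. The median log2 fold change was -0.07 over the members and 0.0 over all identifiers tested. Tested against a 1.5-fold change instead of 0, 3 members rose and 3 fell, where 8.66% of all identifiers were called higher and 8.67% lower. Since the choice of members was made with this contrast known, nothing is read from these shares.

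**Figure D1:**
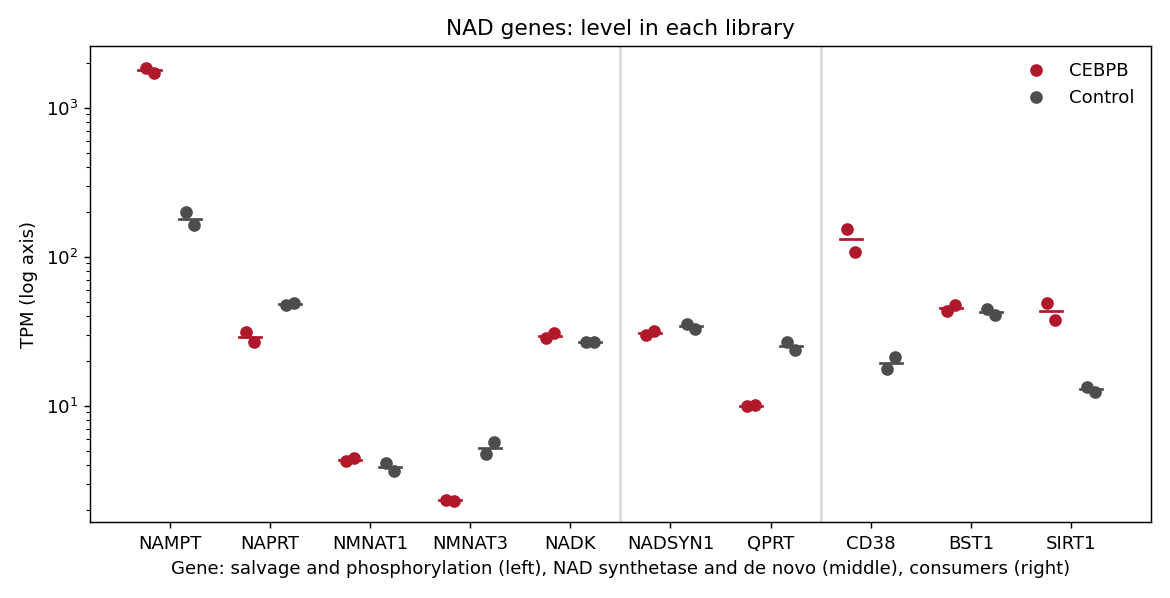
TPM on a log axis of the 10 genes in each library; points are libraries, short lines are group means, CEBPB red and Control grey. NAMPT, CD38 and SIRT1 lie higher in both CEBPB libraries and NAPRT, NMNAT3 and QPRT lower, while the BST1 libraries overlap.

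NAMPT, nicotinamide phosphoribosyltransferase, which makes nicotinamide mononucleotide and limits the rate of salvage, is ENSG00000105835.13 (chromosome 7, 106248285 to 106286326, minus strand, in GENCODE v29 on GRCh38, as are all gene coordinates here). It had 1857 and 1696 TPM in the CEBPB libraries and 198 and 162 TPM in the Control libraries. Both CEBPB libraries lay far above both Control libraries. The log2 change over the Control libraries was 3.12 ± 0.11 (SE), with edgeR's adjusted p = 1.2e-04. By TPM it ranked 77 and 86 among all identifiers in the CEBPB libraries, and 597 and 726 in the Control libraries. In bulk RNA more cells that hold a transcript and more RNA per cell cannot be told apart, here and for every gene below. Reads recovered from TPM and length were 37506 and 30365 in the CEBPB libraries and 4184 and 3943 in the Control libraries. The processed pseudogene NAMPTP1 on chromosome 10 read 28.6 and 26.2 TPM in the CEBPB libraries against 2.88 and 2.66 TPM in the Control libraries, between 1.45% and 1.64% of the NAMPT level in each library. Whether reads were shared between these near copies was not tested, and the pseudogene lies outside the rule for named genes. The other 2 listed pseudogenes, NAMPTP2 and NAMPTP3, were at 0 TPM in all 4 libraries.

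NAPRT, which starts NAD synthesis from nicotinic acid (ENSG00000147813.16, chromosome 8, 143574785 to 143578649, minus strand), went the other way. It had 31.3 and 26.6 TPM in the CEBPB libraries and 47.6 and 48.6 TPM in the Control libraries, with no overlap. Fitted as CEBPB over Control, the log2 change came to -0.91 ± 0.08 (SE), with edgeR's adjusted p = 8.0e-04. The ratio of NAMPT to NAPRT TPM was 59.4 and 63.8 in the CEBPB libraries and 4.16 and 3.33 in the Control libraries. In GENCODE v29 an antisense gene overlaps each of NAMPT, NAPRT and NMNAT3. The library kit keeps strand, but the strand setting of the authors' quantification is not given in the sources used here, so antisense reads within these loci cannot be told apart from their own.

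The NMNAT enzymes, which complete the dinucleotide, were the least abundant members. NMNAT1, the nuclear enzyme (ENSG00000173614.14, chromosome 1, 9943428 to 9985501, plus strand), had 4.22 and 4.44 TPM in the CEBPB libraries and 4.14 and 3.66 TPM in the Control libraries. The groups lay side by side, with the CEBPB libraries just above. On the log2 scale the CEBPB libraries differed from the Control libraries by -0.02 ± 0.19 (SE), with edgeR's adjusted p = 0.953, on 121 to 155 recovered reads per library. NMNAT3, described as the mitochondrial enzyme (ENSG00000163864.18, chromosome 3, 139560180 to 139678017, minus strand), had 2.32 and 2.31 TPM in the CEBPB libraries and 4.73 and 5.69 TPM in the Control libraries. That was a fall in both CEBPB libraries, with a log2 fold change of -1.35 ± 0.21 (SE; edgeR's adjusted p = 0.00442). The summed level of NMNAT1 and NMNAT3 was 6.55 and 6.75 TPM in the CEBPB libraries and 8.87 and 9.35 TPM in the Control libraries. The NAMPT level was 284 and 251 times that sum in the CEBPB libraries, and 22.3 and 17.3 times in the Control libraries.

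NADK, the cytosolic kinase that turns NAD into NADP (ENSG00000008130.15, chromosome 1, 1751232 to 1780457, minus strand), had 28.3 and 30.6 TPM in the CEBPB libraries and 26.7 and 26.7 TPM in the Control libraries. The log2 change over the Control libraries was -0.04 ± 0.09 (SE), with edgeR's adjusted p = 0.755. For NMNAT1 and NADK the TPM was slightly higher in the CEBPB libraries while the fitted change was slightly negative. The fit scales libraries by the trimmed mean of M values, and scaling by library totals alone moved the median log2 fold change of all identifiers up by 0.18 and the share of calls that were higher to 65.2%, against 49.0%. Under library totals NMNAT1 stood at 0.16, NADK at 0.14 and BST1 at 0.082, so no direction is given for these 3 genes.

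QPRT, quinolinate phosphoribosyltransferase (ENSG00000103485.19, chromosome 16, 29679008 to 29698699, plus strand), had 9.95 and 10.1 TPM in the CEBPB libraries and 26.7 and 23.6 TPM in the Control libraries. The 2 groups were far apart and the CEBPB libraries nearly equal. It fell, with a log2 fold change of -1.51 ± 0.11 (SE; edgeR's adjusted p = 4.5e-04), and NMNAT3 at -1.35 ± 0.21 lay within the error of it. In GENCODE v29 another gene, AC009086.2, overlaps it on the same strand, so its reads are uncertain to that extent. NADSYN1, NAD synthetase, which amidates the acid form made by the NAPRT and QPRT routes (ENSG00000172890.13, chromosome 11, 71453109 to 71524107, plus strand), had 29.8 and 31.8 TPM in the CEBPB libraries and 35.3 and 32.8 TPM in the Control libraries. The groups did not overlap but nearly met. Fitted as CEBPB over Control, the log2 change came to -0.32 ± 0.09 (SE), with edgeR's adjusted p = 0.0367. That call was lost in 8 of 15 alternative fits. Among them were DESeq2 (adjusted p = 0.0893) and library totals (-0.14 on the log2 scale, adjusted p = 0.225, edgeR). Limma on log2 TPM plus 1 (adjusted p = 0.24) or plus 0.1 (adjusted p = 0.238) and the test against a 1.5-fold change also lost it. So did leaving out Control replicate 1, Control replicate 2 or CEBPB replicate 1 (log2 fold changes -0.27, -0.38 and -0.23).

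NAMPT took a larger share of the entry enzymes' RNA in both CEBPB libraries than in either Control library. Of the summed TPM of NAMPT, NAPRT and QPRT, NAMPT made up 97.8% and 97.9% in the CEBPB libraries and 72.7% and 69.1% in the Control libraries. NAPRT made up 1.65% and 1.54% in the CEBPB libraries against 17.5% and 20.8% in the Control libraries. QPRT made up 0.524% and 0.582% in the CEBPB libraries and 9.81% and 10.1% in the Control libraries. The sum itself was 1898 and 1733 TPM in the CEBPB libraries and 272 and 234 TPM in the Control libraries. These shares are given as a description with no test run on them; an exact permutation test of 2 against 2 libraries cannot go below a two-sided p of 0.333.

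**Figure D2:**
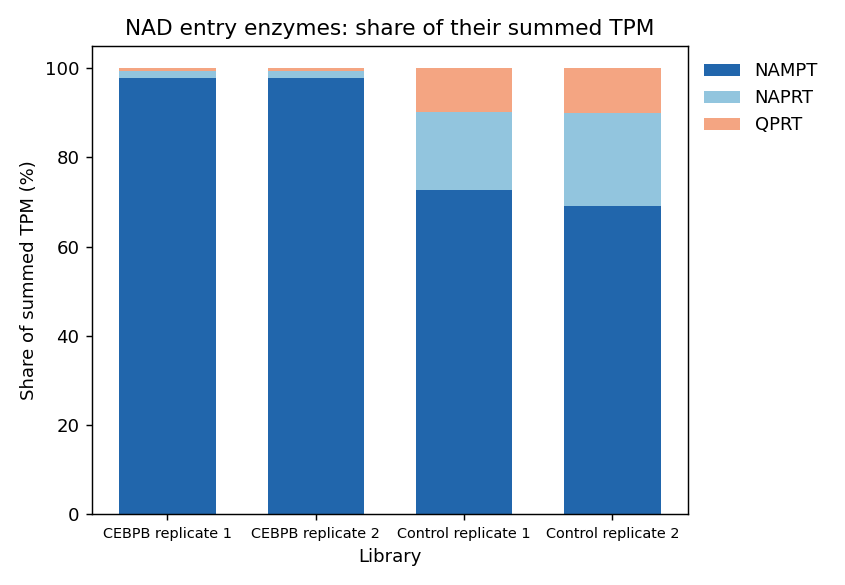
Stacked bars of the share (%) of NAMPT, NAPRT and QPRT in their summed TPM, 1 bar per library, bars starting at 0. NAMPT takes 97.8% and 97.9% in the CEBPB libraries and 72.7% and 69.1% in the Control libraries.

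CD38, a surface enzyme that hydrolyses NAD and forms cyclic ADP-ribose (ENSG00000004468.13, chromosome 4, 15778275 to 15853230, plus strand), had 154 and 107 TPM in the CEBPB libraries and 17.7 and 21.1 TPM in the Control libraries. The CEBPB libraries were apart from the Control libraries but also differed from each other, with an SD of 32.9 TPM on a mean of 130.5 TPM. Only NAMPT had a larger SD there, 113.6 TPM, on a mean of 1777 TPM. On the log2 scale the CEBPB libraries differed from the Control libraries by 2.57 ± 0.18 (SE), with edgeR's adjusted p = 4.2e-04. BST1, its relative CD157 (ENSG00000109743.11, chromosome 4, 15702950 to 15738313, plus strand), had 43.2 and 47.1 TPM in the CEBPB libraries and 44.9 and 40.4 TPM in the Control libraries. These groups overlapped, and the log2 fold change was -0.10 ± 0.10 (SE; edgeR's adjusted p = 0.477). The 2 genes lie on the same strand with 39962 bases between the end of BST1 and the start of CD38. In GENCODE v29 1 other gene lies wholly between them. The ratio of CD38 to BST1 TPM was 3.56 and 2.28 in the CEBPB libraries and 0.394 and 0.523 in the Control libraries, so the more abundant of this pair was CD38 in the CEBPB libraries and BST1 in the Control libraries. Together they stood at 197 and 154 TPM in the CEBPB libraries against 62.5 and 61.5 TPM in the Control libraries. FAM200B overlaps BST1 on the same strand and read 52.5 and 40.9 TPM in the CEBPB libraries and 24.9 and 21.6 TPM in the Control libraries.

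SIRT1, a nuclear deacetylase that spends NAD on each acetyl group it removes (ENSG00000096717.12, chromosome 10, 67884669 to 67918390, plus strand), had 48.9 and 37.8 TPM in the CEBPB libraries and 13.3 and 12.4 TPM in the Control libraries. The groups did not overlap, and the log2 fold change was 1.57 ± 0.13 (SE; edgeR's adjusted p = 6.1e-04). Among the 7 sirtuins it took 41.3% and 39.3% of the summed TPM in the CEBPB libraries and 16.0% and 15.2% in the Control libraries.

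Ordered by mean TPM, NAMPT was the highest member in both groups. In the CEBPB libraries it was followed by CD38 (130.5 ± 32.9 TPM, SD, n = 2), BST1 (45.1 ± 2.72), SIRT1 (43.3 ± 7.88), NADSYN1 (30.8 ± 1.48), NADK (29.4 ± 1.63), NAPRT (28.9 ± 3.30), QPRT (10.01 ± 0.0972), NMNAT1 (4.33 ± 0.156) and NMNAT3 (2.31 ± 0.0116). There the replicates of BST1 and SIRT1, of NADSYN1 and NADK, and of NADK and NAPRT overlapped. In the Control libraries NAMPT (180.1 ± 25.6 TPM, SD, n = 2) was followed by NAPRT (48.1 ± 0.745), BST1 (42.6 ± 3.16), NADSYN1 (34.0 ± 1.73), NADK (26.7 ± 0.0145), QPRT (25.2 ± 2.18), CD38 (19.4 ± 2.46), SIRT1 (12.9 ± 0.645), NMNAT3 (5.21 ± 0.678) and NMNAT1 (3.90 ± 0.341). There only NADK and QPRT, among neighbours in the order, had overlapping replicates.

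The tables also hold effective length, the abundance-weighted length of a gene's transcripts, given here without a test. It was longer in the CEBPB libraries, with no overlap of the groups and means over 10% apart, for 3 of the 10 members, and shorter for 0. Among all 13698 identifiers tested 13.4% were longer and 4.34% shorter by that rule. NMNAT3 had 3304 and 2993 bases in the CEBPB libraries and 1884 and 2140 bases in the Control libraries, a mean difference of 56.5%. GENCODE v29 lists 21 NMNAT3 transcripts of 360 to 6881 bases. CD38 had 3353 and 3750 bases in the CEBPB libraries and 2936 and 3050 bases in the Control libraries (18.6%). QPRT had 1883 and 1915 bases in the CEBPB libraries and 1689 and 1762 bases in the Control libraries, just past the rule at 10.1%, and NAPRT at -8.0% and BST1 at 7.1% were the nearest that did not pass. A longer effective length means more reads per TPM, and the deposited counts carry no length. NMNAT3 had 125 and 99 recovered reads in the CEBPB libraries against 152 and 224 in the Control libraries, and its log2 fold change on those reads was -0.76 (adjusted p = 0.0112, edgeR). With the length as an offset in the same fit it was -1.36 (adjusted p = 0.00132, edgeR), close to the -1.35 on the deposited counts. NAMPT, at 1236 and 1254 bases in the CEBPB libraries and 1236 and 1323 bases in the Control libraries, overlapped.

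**Figure D3:**
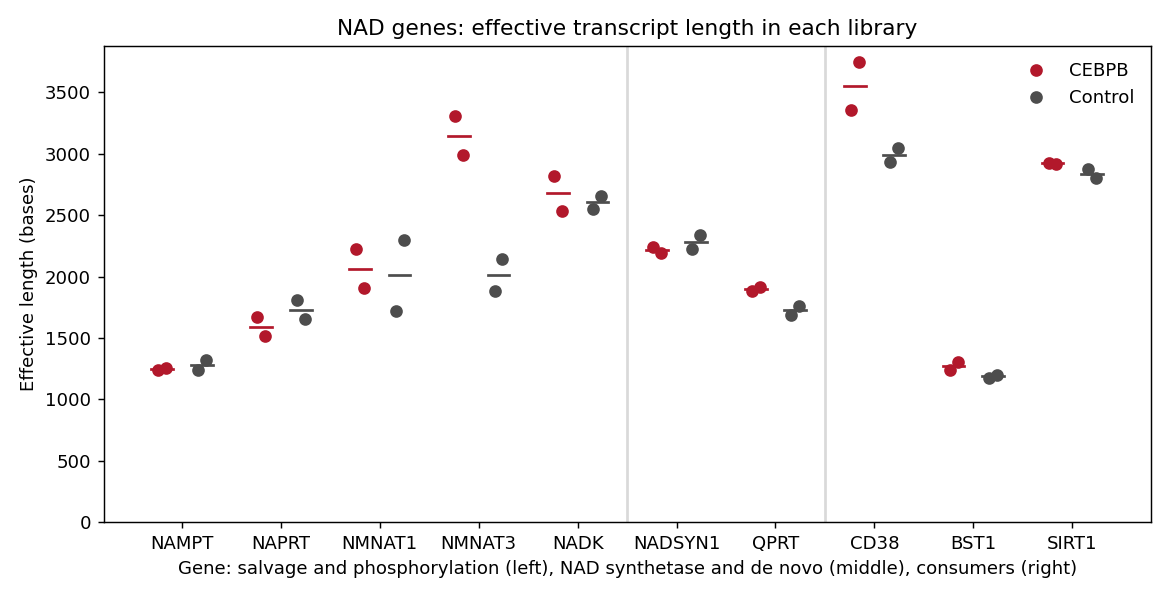
Effective transcript length in bases of the 10 genes in each library, axis from 0; points are libraries, short lines are group means, CEBPB red and Control grey. NMNAT3 shows the widest gap, with group means 56.5% apart, and CD38 and QPRT are the other genes past 10%.

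Beyond the members, 51 further genes of NAD metabolism were listed by function, of which 41 had enough counts to test, 13 rose and 7 fell. That is 31.7% higher and 17.1% lower, beside 23.7% higher and 24.7% lower over all identifiers tested. These counts say nothing particular about the lists. Their median log2 fold change was 0.18, beside 0.0 over all identifiers tested. In the sentences that follow, values in parentheses are log2 fold changes with edgeR's adjusted p. The other 10 were at 0.611 TPM or less in every library, among them NMNAT2, the remaining NMNAT enzyme, and IDO1, which begins tryptophan breakdown and reached 0.0368 TPM.

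Of 13 genes of salvage, transport and phosphorylation 9 were tested, 3 rose (33.3%, against 23.7% of all identifiers) and 2 fell (22.2%, against 24.7%), with a median log2 fold change of 0.18. NMRK1, which phosphorylates nicotinamide riboside into the salvage route, had 17.2 and 13.2 TPM in the CEBPB libraries and 4.40 and 4.54 TPM in the Control libraries (log2 fold change 1.58, SE 0.16, adjusted p = 0.00109, edgeR). SLC25A51, the carrier of NAD into mitochondria, had 30.0 and 27.1 TPM in the CEBPB libraries and 11.3 and 12.9 TPM in the Control libraries (1.06, SE 0.10, adjusted p = 0.001, edgeR). NAXE, which repairs hydrated NADH, had 37.1 and 35.3 TPM in the CEBPB libraries and 65.5 and 62.3 TPM in the Control libraries (-1.0, SE 0.07, adjusted p = 4.0e-04, edgeR). NNT, the mitochondrial transhydrogenase between NADH and NADPH, had 33.6 and 32.0 TPM in the CEBPB libraries and 45.7 and 46.1 TPM in the Control libraries (-0.66, SE 0.07, adjusted p = 0.00111, edgeR). In none of these 4 genes did the groups overlap. They were named for the largest changes among the called genes of the list, so nothing is read from that.

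Of 11 genes of the kynurenine route 7 were tested, 2 rose and 2 fell (28.6% each, against 23.7% and 24.7% of all identifiers), with a median of -0.38 on the log2 scale. KYNU, kynureninase, had 174 and 145 TPM in the CEBPB libraries and 19.4 and 20.5 TPM in the Control libraries, a log2 fold change of 2.82 ± 0.09 (SE; edgeR's adjusted p = 9.9e-05). AFMID, the formamidase upstream of it, had 17.6 and 24.4 TPM in the CEBPB libraries and 42.5 and 47.6 TPM in the Control libraries (-1.28, SE 0.18, adjusted p = 0.00352, edgeR). HAAO, the dioxygenase that makes the precursor of quinolinic acid, had 3.88 and 4.14 TPM in the CEBPB libraries and 5.29 and 5.36 TPM in the Control libraries (-0.59, SE 0.17, adjusted p = 0.0373, edgeR). That call was lost in 12 of 15 alternative fits. Among them were DESeq2 (adjusted p = 0.197), library totals (adjusted p = 0.101, edgeR) and any library left out (log2 fold changes from -0.67 to -0.50). KYAT3, an aminotransferase that leads kynurenine away from NAD, had 25.6 and 22.6 TPM in the CEBPB libraries and 14.9 and 15.6 TPM in the Control libraries (0.47, SE 0.09, adjusted p = 0.00878, edgeR). The ratio of KYNU to QPRT TPM, the listed step that rose most and the closing step of the route, was 17.5 and 14.4 in the CEBPB libraries and 0.725 and 0.867 in the Control libraries. KYNU was picked for its rise and QPRT had fallen, so a gap in this ratio follows from the choice. Nothing is read from it.

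Of the 6 sirtuins other than SIRT1, all tested, 0 rose (against 23.7% of all identifiers) and 2 fell (33.3%, against 24.7%), with a median of -0.30 on the log2 scale. SIRT7, a nucleolar sirtuin, had 17.0 and 13.7 TPM in the CEBPB libraries and 22.9 and 24.1 TPM in the Control libraries (-0.80, SE 0.11, adjusted p = 0.00297, edgeR). SIRT2, mainly cytosolic, had 10.5 and 11.3 TPM in the CEBPB libraries and 12.9 and 12.5 TPM in the Control libraries (-0.40, SE 0.12, adjusted p = 0.0394, edgeR). That call was lost in 10 of 15 alternative fits. Among them were DESeq2 (adjusted p = 0.178) and library totals (adjusted p = 0.172, edgeR). Leaving out Control replicate 1, Control replicate 2 or CEBPB replicate 1 also lost it (log2 fold changes -0.38, -0.42 and -0.30). Of 21 ADP-ribosyl transferases, hydrolases and the NAD glycohydrolase SARM1, 19 were tested, 8 rose (42.1%, against 23.7% of all identifiers) and 1 fell (5.26%, against 24.7%), with a median of 0.33 on the log2 scale. TNKS, tankyrase, had 5.31 and 7.02 TPM in the CEBPB libraries and 2.18 and 2.35 TPM in the Control libraries (1.27, SE 0.24, adjusted p = 0.00893, edgeR). PARP9 and PARP14, both known as interferon-induced, also rose. PARP9 had 31.4 and 25.7 TPM in the CEBPB libraries and 13.3 and 12.6 TPM in the Control libraries (0.96, SE 0.11, adjusted p = 0.00166, edgeR). PARP14 had 45.3 and 31.1 TPM in the CEBPB libraries and 18.7 and 18.3 TPM in the Control libraries (0.86, SE 0.16, adjusted p = 0.00881, edgeR). PARP1, the main DNA-damage polymerase of the family and its most abundant listed member, fell, with 152 and 129 TPM in the CEBPB libraries against 194 and 200 TPM in the Control libraries (-0.67, SE 0.08, adjusted p = 0.00163, edgeR).

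**Figure D4:**
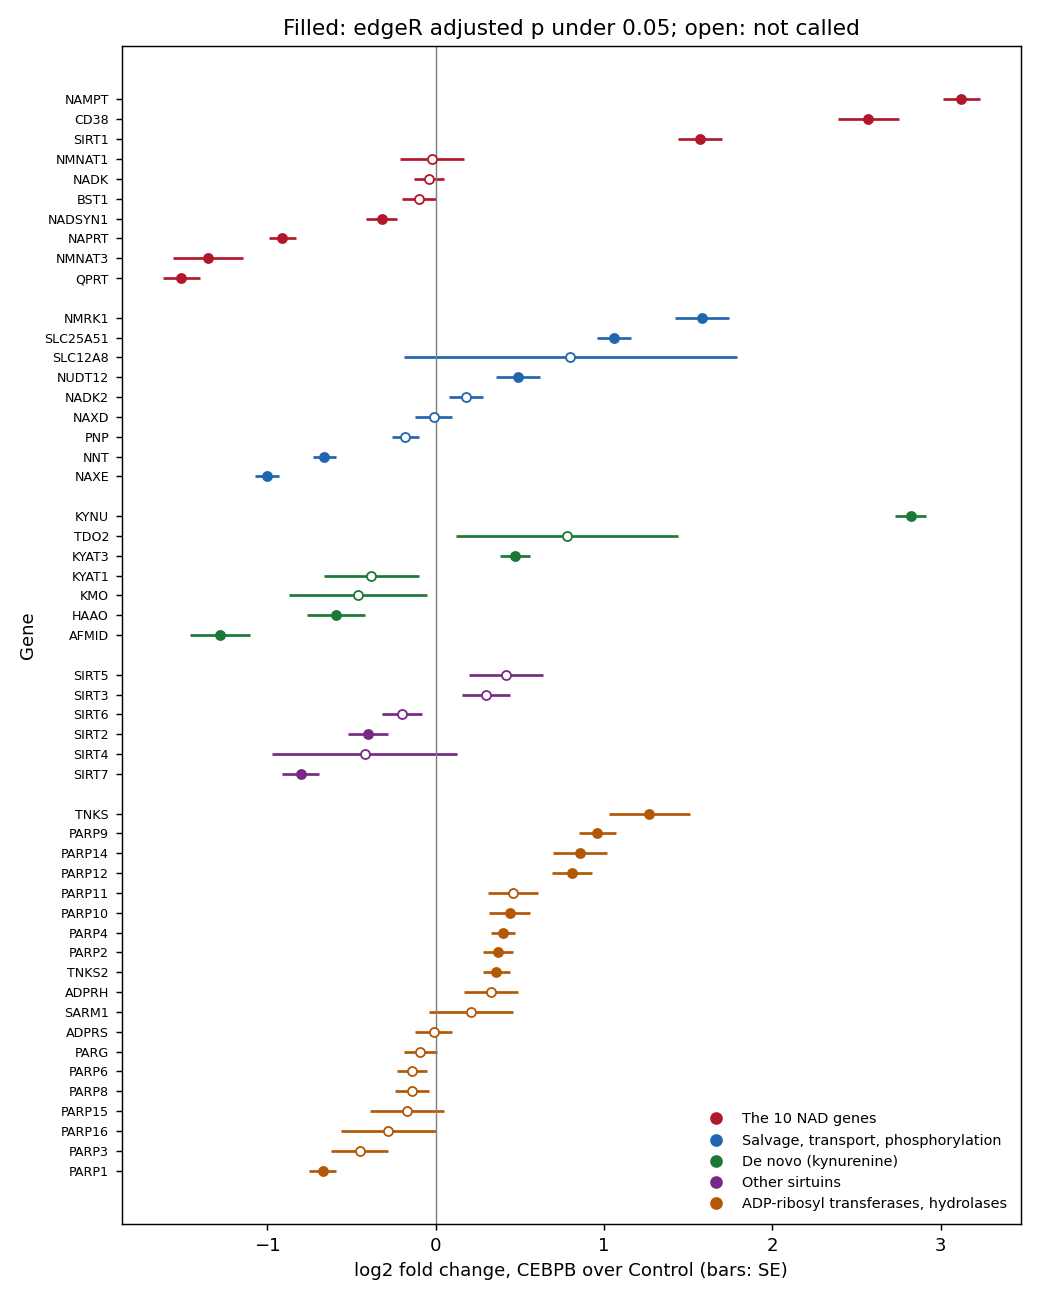
log2 fold change of CEBPB over Control (horizontal axis, bars are SE) for the 10 genes at the top and the 41 tested genes of the 4 further lists below; filled points passed edgeR's adjusted p of 0.05, open points did not. NAMPT at 3.12 and KYNU at 2.82 lie farthest to the right, and QPRT at -1.51 farthest to the left.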

How the data were processed

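RNA of 4 libraries (2 CEBPB, 2 Control, grouped by title) was processed with Trimmomatic 0.39 and kallisto 0.46.2 on GRCh38, per the submitters' processing notes. Annotation release, strand setting and gene-level step are not given in the sources used here. The authors deposited TPM, effective lengths in bases, and estimated counts; these counts equal TPM times 1 constant per library, so they carry no length. Symbols were matched for 35690 of 41084 identifiers.

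For the tests, estimated counts were rounded to whole numbers. The filterByExpr rule, by group, left 13698 identifiers. Normalization used trimmed means of M values, with factors of 0.938 to 1.09. The test was edgeR's quasi-likelihood test (version 4.0.16, R 4.3.3), Benjamini-Hochberg adjusted over all identifiers tested, with a biological coefficient of variation of 11.3%. Multiplying TPM by length and fixing each library's total gave the recovered reads. Alternatives used other scalings, filters and count forms, DESeq2 1.42.0, limma 3.58.1 on log2 TPM with 1 or 0.1 added, a replicate block, and each library left out. The fit was also run on simulated counts with the same dispersion for every gene and few changed genes. That setting differs from these data, so nothing is read from it.

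Members, lists and tests were chosen with earlier results of these data known. Named genes are CEBPB, the 10 members and, in each further list, up to 4 called genes with the largest change, with both directions where both passed. Gene coordinates are from GENCODE v29 (GRCh38), whose identifier versions differ for most members. Figures used matplotlib 3.10.9 in Python 3.11.15. The value of 1 lineage marker is not reported here.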

Additional observations from a re-analysis of the deposited data

How the results depend on the processing

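NAMPT (log2 fold change 2.98 to 3.31), CD38 (2.33 to 2.77), SIRT1 (1.42 to 1.75), QPRT (-1.60 to -1.25), NMNAT3 (-1.47 to -0.76) and NAPRT (-1.08 to -0.72) kept their direction and their call under all 15 alternatives. In each alternative that kept all 4 libraries 3 members were called higher and 3 or 4 lower. Beside them 1186 to 4498 identifiers were higher and 1188 to 4209 lower, of 12670 to 19845 tested. Nothing is read from these member counts. NMNAT1, NADK and BST1, which were never called, changed sign with library totals (0.16, 0.14 and 0.082), on log2 TPM plus 1 (0.12, 0.13 and 0.081), on log2 TPM plus 0.1 (0.15, 0.14 and 0.083) and without CEBPB replicate 1 (0.066, 0.061 and 0.010), NMNAT1 also without Control replicate 1 (0.070); with libraries left out they ranged from -0.10, -0.13 and -0.19 upward. Against a 1.5-fold change 1186 identifiers were higher and 1188 lower, and 5 and 2 of the further NAD genes. With recovered reads 17 of those genes were higher and 12 lower, beside 4179 higher and 4209 lower of the 13704 identifiers tested. On recovered reads NAMPT made up 97.1% of the 3 entry enzymes in the CEBPB libraries and 64.4% in the Control libraries, since lengths differ between the genes. At a mark of 20% in effective length NMNAT3 stayed longer, while CD38 and QPRT no longer passed. The share of all identifiers past that mark was not counted, so nothing is read from it. The labels do not say whether equal replicate numbers share a culture or day. The correlation of their deviations over genes was -0.0125, which cannot show whether the libraries were paired. With a replicate block 3 members rose and 4 fell, beside 3174 identifiers higher and 3308 lower. The calls of HAAO (adjusted p = 0.0597, edgeR) and SIRT2 (adjusted p = 0.0548, edgeR) were lost there. With 2 libraries a group, small changes in genes of few reads, NMNAT1 and NMNAT3 above all, are poorly resolved.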
